A study of Mus musculus with 6 samples.

Results

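The 10 genes described here encode the proteins that fill the granules of neutrophils, together with the alarmins of their cytosol. They were chosen by name, with earlier results of these data known, out of 26216 gene names measured. They fall into 4 genes of the primary granule (*Mpo*, *Elane*, *Prtn3* and *Ctsg*), 4 of the specific granule (*Camp*, *Ngp*, *Ltf* and *Lcn2*) and the 2 alarmins *S100a8* and *S100a9*. LT/ST-HSCs, the long- and short-term hematopoietic stem cells, were sorted for CD150 without CD48 among lineage-negative, living (Annexin-V-) cells with sca1 and c-kit, from the bone marrow of mixed chimeras 6 weeks after transplantation, and their mRNA was sequenced. In these chimeras LSKs of Ltbr-/- (CD45.2) donors and of Ly5.1 (CD45.1) donors had been placed together in lethally irradiated Ly5.1/Ly5.2 recipients, so that both genotypes shared a host. The Ltbr-/- donors are homozygous for a disrupted gene of the lymphotoxin β receptor and were 13 weeks (replicate 1), 10 weeks (replicate 2) and 10 to 13 weeks old (replicate 3), and the Ly5.1 donors, which carry the wild-type receptor, were 7 to 13 weeks old. Each genotype has 3 samples, pooled by the authors from the cells of 6 chimeras. The donors thus differed in *Ltbr*, in the CD45 allele and in part in age, and these cannot be told apart in the comparison of Ltbr-/- with Ly5.1 cells.

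Primary granules form at the promyelocyte stage of neutrophil development, and their genes are transcribed first. Myeloperoxidase, encoded by *Mpo*, turns hydrogen peroxide and chloride into hypochlorous acid, and *Elane*, *Prtn3* and *Ctsg* encode the serine proteases neutrophil elastase, proteinase 3 and cathepsin G. Specific granules follow in myelocytes and metamyelocytes and hold the antimicrobial peptide cathelicidin (*Camp*), neutrophilic granule protein (*Ngp*), the iron-binding lactoferrin (*Ltf*) and lipocalin 2 (*Lcn2*), which binds bacterial siderophores. *S100a8* and *S100a9* encode the subunits of calprotectin, a calcium- and zinc-binding complex of the neutrophil cytosol that acts as an alarmin when released. Transcripts of primary granule genes are also known from myeloid progenitors, and those of the later genes mark cells further along the neutrophil lineage.

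The values are a signal per gene and sample without unit, deposited by the authors and taken here, from its values and their methods, as a power of 2 of a regularized log, a log value scaled for library size and drawn towards the mean in weakly expressed genes. Fold changes are given as log2 of the Ltbr-/- over the Ly5.1 signal. A gene passed the test when its adjusted p in limma was under 0.05 over all 13108 tested genes, and it was called when the fold difference also reached 1.5, the threshold of the study. *Ltbr* itself had a signal of 24.2, 26.4 and 23.1 in the Ltbr-/- samples and of 564, 549 and 522 in the Ly5.1 samples. Markers of HSCs were present in all samples, with *Kit* between 5179 and 6103, *Gata2* between 3813 and 4731 and *Meis1* between 2190 and 2693. *Cd48*, excluded by the sort, lay between 20.1 and 28.9. The authors' methods give the number of reads as an average over the samples. Totals of single samples are not given, so the depth behind a single value is unknown.

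The genes lie on 6 chromosomes in GRCm38.p6. *Mpo* is on chromosome 11 (87793784 to 87804412) and *Ctsg* on chromosome 14 (56099885 to 56102574). *Prtn3* (79879667 to 79883174) and *Elane* (79886312 to 79888216) are neighbours on chromosome 10. *Camp* (109847377 to 109849456), *Ngp* (110419808 to 110423012) and *Ltf* (111019292 to 111042766) share a stretch of 1.195 Mb on chromosome 9. *S100a8* (90669071 to 90670034) and *S100a9* (90692630 to 90695721) stand together on chromosome 3, and *Lcn2* is on chromosome 2 (32384637 to 32387739). None of the 10 genes shared a window of 76 bases, the read length, with the transcripts of another gene in GENCODE M21. Exons of *Mpo* overlap those of *Gm11505*, and exons of *Prtn3* those of *Plppr3*, on the opposite strand. The library kit keeps strand, but whether the counting used it is not given in the sources used here.

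Because the 10 genes moved in the same direction, the 250 bases before their start sites were searched on both strands for letters bound by 3 regulators of granulopoiesis that were themselves measured. The letters of C/EBP factors (TTNNGNAA) were found in 5 of the 10, namely *Ngp*, *Ltf*, *Lcn2*, *S100a8* and *S100a9*, and in 36.8% of all 32851 promoters. The letters of PU.1 (GAGGAA) were found in 7 of the 10, namely *Mpo*, *Elane*, *Prtn3*, *Ctsg*, *Ltf*, *Lcn2* and *S100a8*, and in 23.3% of all promoters. The letters of MYB (AACNG) were found in all 10 and in 74.2% of all promoters. All 4 primary granule promoters thus held the PU.1 letters and none the C/EBP letters, 5 of the 6 later ones held the C/EBP letters, and *Camp* held neither. The split was noticed after the search, the matches are a description of these windows, and binding was not measured. The stretches of 5 genes are printed to show both kinds (RefSeq, GRCm38.p6, 5′ to 3′ on the strand of the gene). Capitals mark the letters of C/EBP and PU.1 on either strand.
Mpo, chr11:87793534-87793783, plus strand: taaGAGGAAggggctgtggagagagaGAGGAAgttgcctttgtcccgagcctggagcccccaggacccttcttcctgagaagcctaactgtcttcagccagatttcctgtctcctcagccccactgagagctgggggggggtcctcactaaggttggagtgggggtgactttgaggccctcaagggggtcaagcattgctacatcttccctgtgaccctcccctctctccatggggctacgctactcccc
Elane, chr10:79886062-79886311, plus strand: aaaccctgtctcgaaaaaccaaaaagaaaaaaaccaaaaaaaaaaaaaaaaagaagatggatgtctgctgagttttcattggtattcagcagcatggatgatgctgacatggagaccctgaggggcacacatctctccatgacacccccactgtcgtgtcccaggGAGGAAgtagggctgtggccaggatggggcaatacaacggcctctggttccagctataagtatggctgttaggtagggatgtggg
Ngp, chr9:110419558-110419807, plus strand: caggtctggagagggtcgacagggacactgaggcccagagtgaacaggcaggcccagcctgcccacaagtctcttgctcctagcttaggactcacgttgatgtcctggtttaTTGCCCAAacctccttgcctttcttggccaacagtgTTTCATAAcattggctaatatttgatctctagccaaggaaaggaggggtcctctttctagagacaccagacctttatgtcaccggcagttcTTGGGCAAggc
Ltf, chr9:111019042-111019291, plus strand: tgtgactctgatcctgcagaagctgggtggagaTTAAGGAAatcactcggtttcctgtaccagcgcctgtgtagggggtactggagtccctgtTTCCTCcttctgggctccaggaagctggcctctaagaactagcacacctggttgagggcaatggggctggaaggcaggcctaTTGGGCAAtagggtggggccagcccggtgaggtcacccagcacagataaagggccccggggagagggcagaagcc
S100a9, chr3:90695722-90695971, minus strand: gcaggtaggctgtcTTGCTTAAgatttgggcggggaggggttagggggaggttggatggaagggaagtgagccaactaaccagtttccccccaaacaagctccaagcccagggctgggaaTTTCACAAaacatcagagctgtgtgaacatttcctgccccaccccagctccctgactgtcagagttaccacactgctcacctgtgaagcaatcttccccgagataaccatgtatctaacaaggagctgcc

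All 10 genes had lower signals in Ltbr-/- than in Ly5.1 LT/ST-HSCs, and in each of them the 3 Ltbr-/- values lay below the 3 Ly5.1 values. Among all tested genes, 13.5% had groups apart in this way. Of the 10, 9 fell with an adjusted p under 0.05 (limma), which 4.18% of tested genes did in this direction. Their log2 fold changes ranged from −0.57 to −0.23 with a median of −0.44, against −0.01 over all tested genes. None reached a fold of 1.5, so that 0 were called lower, against 0.061% of tested genes. At an unadjusted p under 0.05 all 10 passed in limma, against 3555 of the 13108 tested genes in either direction. Summed over the 10 genes, the signal of Ltbr-/- cells was 45914 ± 432 (SD, n = 3) against 61718 ± 2517 (SD, n = 3) for Ly5.1 cells, a difference of −25.6%. In bulk RNA, fewer cells of a type and less RNA per cell cannot be told apart. As strongly expressed genes, the 10 were also set beside the 2940 tested genes with a mean signal of at least 1000, of which 9.05% fell with an adjusted p under 0.05. The test depended on the filter. Without it, when 9034 names of constant value enter the fit, 4 of the 10 passed, namely *Camp*, *Ngp*, *Ltf* and *S100a9*. Of all 26216 names, 0.343% fell with an adjusted p under 0.05 in that fit.

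**Figure D1:**
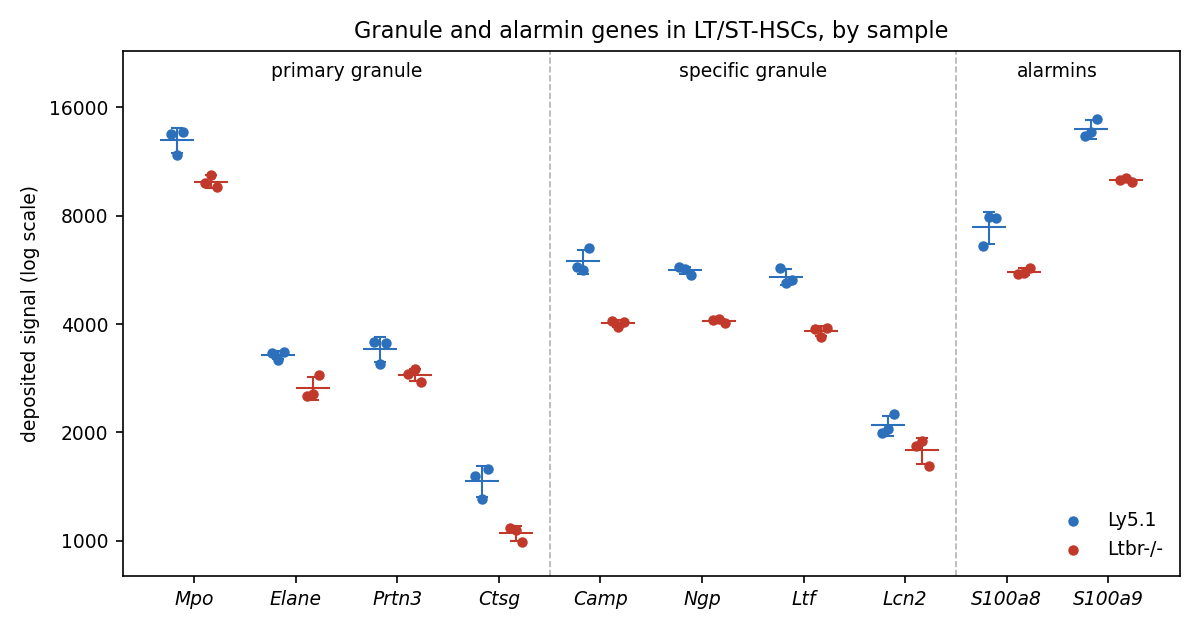
Deposited signal (log axis) of the 10 genes in each of the 3 Ly5.1 (blue) and 3 Ltbr-/- (red) samples; the horizontal marks are means and the error bars SD. In every gene the red points lie below the blue points, with the narrowest gaps in *Prtn3*, *Elane* and *Lcn2*.

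Among the primary granule genes, *Mpo* was the strongest, at percentile 99.3 of the mean signal over tested genes. Its signal was 9853, 10416 and 9592 in the Ltbr-/- samples and 13524, 11834 and 13699 in the Ly5.1 samples. The Ly5.1 replicate 2 was the lowest of its group and still above the highest Ltbr-/- value. The log2 difference was −0.39 (SE 0.07, limma-adjusted p = 2.97e-05), or 23.4% less. After quantile normalization it was −0.75, past the fold of 1.5.

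For *Ctsg*, the weakest of the 10, the signals were 1083, 1071 and 993 in Ltbr-/- and 1518, 1306 and 1578 in Ly5.1 cells. On the deposited scale the decrease was the largest of the primary granule genes, though not after quantile normalization (−0.51, against −0.75 for *Mpo*), with a log2 fold change of −0.48 (SE 0.09, limma-adjusted p = 1.06e-04). As in *Mpo*, the Ly5.1 replicate 2 was the lowest of its group.

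*Elane* had values of 2531, 2557 and 2889 in Ltbr-/- and of 3323, 3178 and 3339 in Ly5.1 samples. Here the Ltbr-/- replicate 3 came closest to the controls. It differed on the log2 scale by −0.31 (SE 0.08, limma-adjusted p = 0.00554).

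In *Prtn3*, the neighbour of *Elane*, the signals were 2902, 3000 and 2768 in Ltbr-/- and 3570, 3106 and 3553 in Ly5.1 cells, so that the highest Ltbr-/- value and the Ly5.1 replicate 2 nearly met. The log2 fold change of −0.24 (SE 0.08) was the smallest of the 4, and its adjusted p of 0.0370 (limma) was the closest to the threshold. With single samples left out it ranged from 0.0119 to 0.165. It was above 0.05 in 5 of the 6 fits that left out 1 sample, all but the fit without Ly5.1 replicate 2, and highest without Ltbr-/- replicate 3.

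The specific granule genes held the largest decrease of the 10 on the deposited scale, that of *Camp*. After quantile normalization *Camp* was at −0.72, behind *S100a9* and *Mpo*. *Camp* had a signal of 4085, 3918 and 4059 in the Ltbr-/- samples against 5781, 5652 and 6512 in the Ly5.1 samples. The spread within Ltbr-/- was small, at 4021 ± 89.6 (SD, n = 3), and the groups were far apart. It differed on the log2 scale by −0.57 (SE 0.07, limma-adjusted p = 1.41e-07). Leaving out single samples gave values from −0.61 to −0.51. Without Ly5.1 replicate 1 or without Ly5.1 replicate 2 *Camp* also reached the fold of 1.5, and 1 of the 10 genes was then called. Of all 13108 tested genes, 8 and 12 were called lower in these fits.

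*Ltf* followed, with 3883, 3680 and 3912 in Ltbr-/- and 5717, 5214 and 5312 in Ly5.1 cells. The log2 fold change of this iron-binding protein's gene was −0.50 (SE 0.07, limma-adjusted p = 1.56e-06). *Ngp*, a cystatin-like protein of the same granule, had 4112, 4122 and 4018 in Ltbr-/- and 5749, 5694 and 5479 in Ly5.1 samples. It varied little in either genotype, and its log2 difference was −0.47 (SE 0.07, limma-adjusted p = 3.71e-06).

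*Lcn2* was the exception in the test. Its signal was 1834, 1896 and 1618 in Ltbr-/- and 1997, 2040 and 2246 in Ly5.1 cells, with the groups apart but a gap between them no wider than the spread within each. The log2 difference was −0.23 (SE 0.08, 95% confidence interval from −0.41 to −0.06), and the adjusted p of 0.0577 (limma) missed the threshold. It fell below 0.05 with the stricter filter, with quantile normalization, with robust variance estimates and with samples centred on ribosomal protein genes. In these settings 8.86%, 6.97%, 4.25% and 97.9% of tested genes fell with an adjusted p under 0.05. The last setting thus says little about *Lcn2*.

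Both alarmin genes fell. *S100a9* had a signal of 10029, 10167 and 9949 in the Ltbr-/- samples and of 13310, 13650 and 14909 in the Ly5.1 samples. It differed on the log2 scale by −0.47 (SE 0.06, limma-adjusted p = 2.78e-07). *S100a8*, its partner in calprotectin, had 5506, 5557 and 5739 in Ltbr-/- and 6583, 7915 and 7867 in Ly5.1 cells, where replicate 1 was the lowest. The log2 difference was −0.41 (SE 0.07, limma-adjusted p = 6.47e-05). Quantile normalization moved *S100a9* to −0.83 and *S100a8* to −0.65. Taken gene by gene, an exact permutation test (two-sided, 3 samples a group) returned p = 0.1 for all 10, and no smaller p can be reached with this number of samples.

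Per kilobase of their longest protein-coding transcript, the later genes stood both at the top and near the bottom of the order. In Ly5.1 cells *S100a9* had a signal per kilobase of 26891 ± 1624 (SD, n = 3) and *S100a8* of 15340 ± 1554 (SD, n = 3). *Camp* followed with 7891 ± 612 (SD, n = 3), and then *Mpo* with 4734 ± 375 and *Ngp* with 4616 ± 117 (SD, n = 3), which differed by less than the spread of *Mpo*. *Elane* at 3333 and *Prtn3* at 3327 did not differ beyond their spread either. *Lcn2* (2289), *Ltf* (1974) and *Ctsg* (1464) were the lowest. The order in Ltbr-/- cells was the same except that *Prtn3* (2820 ± 113, SD, n = 3) stood above *Elane* (2702 ± 202, SD, n = 3), again within their spread. *S100a9* had 19361, *S100a8* 11524 and *Camp* 5305 signal units per kilobase in these cells.

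Primary and later granule genes were then compared within each sample. The mean log2 signal of the 4 primary genes in Ltbr-/- cells was 11.55 ± 0.02 (SD, n = 3) against 11.90 ± 0.10 (SD, n = 3) for Ly5.1 cells, a difference of −0.35 (SE 0.06). For the 4 specific granule genes the difference was −0.44 (SE 0.03) and for the 2 alarmins −0.44 (SE 0.06). The primary minus the later mean was −0.54, −0.50 and −0.52 in the Ltbr-/- samples and −0.52, −0.72 and −0.60 in the Ly5.1 samples. The groups overlapped, since Ly5.1 replicate 1 lay within the range of the Ltbr-/- samples. The genotypes differed by 0.09 in this measure (SE 0.06), less than the SD of 0.10 among the Ly5.1 samples. Single Ly5.1 libraries moved this value, to 0.04 without replicate 2 and to 0.14 without replicate 1. No p is given for this score because the genes were chosen with earlier results known.

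**Figure D2:**
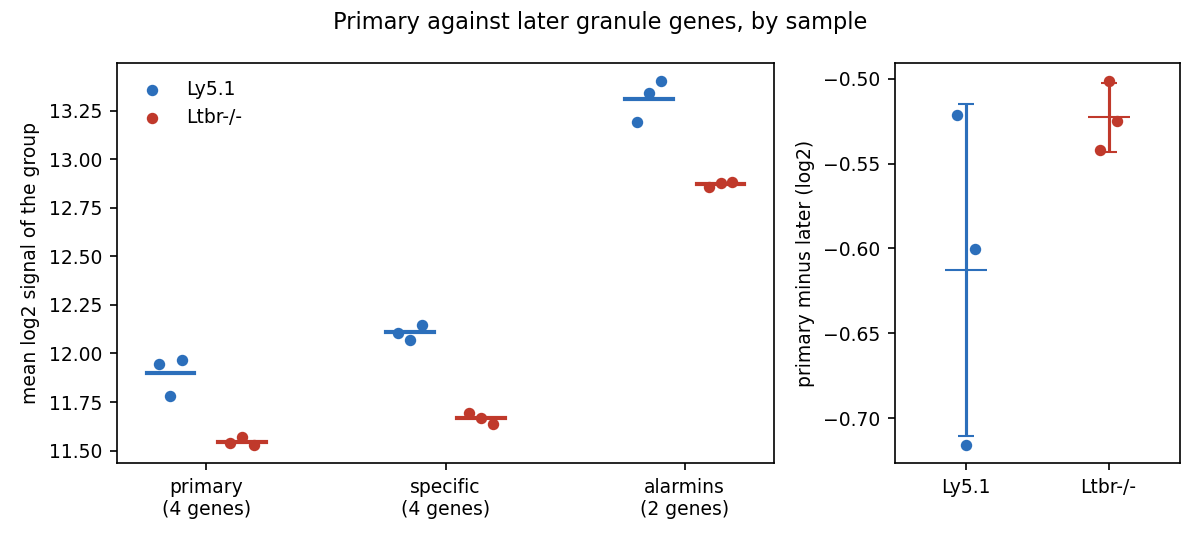
Left, mean log2 signal of the primary granule, specific granule and alarmin genes in each sample, with group means as bars. Right, the primary minus the later mean (log2) with mean and SD; Ltbr-/- samples (red) lie between −0.54 and −0.50 and Ly5.1 samples (blue) between −0.72 and −0.52.

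Within a genotype, the 10 genes did not order the samples alike. Ly5.1 replicate 2 was the lowest of its group in every primary granule gene, but the lowest Ltbr-/- sample differed among these genes. After subtraction of each genotype's mean, Pearson correlations between pairs of the 10 genes over the 6 samples ranged from −0.85 to 0.99. Their median was 0.18, with 28 of 45 pairs above 0. The genes closest to the mean of the primary genes in this respect were *Fbxo4*, *Acy1*, *Fam53c*, *Nubp2* and *Tysnd1*, with r from 0.996 down to 0.964. For the mean of the later genes they were *Tmem188*, *Cngb1*, *Rad9*, *Mrpl49* and *Ier3ip1*, with r from 0.993 down to 0.920. These are the highest of 272 genes over 6 samples that share their libraries, and they serve as a description only. Of these 10 genes, *Acy1* alone passed the test, with a log2 fold change of 0.44 (limma-adjusted p = 0.00306).

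Other granule genes moved in both directions. Of 14 further genes of the primary granule and its lysosomal content, 7 rose and 2 fell with an adjusted p under 0.05, and 5 did not pass. Of all tested genes 10.6% rose, and 2.72% were called higher. *Cst7*, an inhibitor of cysteine cathepsins, was called higher at 0.85 (limma-adjusted p = 3.65e-09), with a signal of 852 ± 35.6 (SD, n = 3) in Ltbr-/- cells against 474 ± 41.0 (SD, n = 3) in Ly5.1. *Cd63*, a membrane protein of the granule, was called with 0.61 (limma-adjusted p = 3.42e-07), though not after quantile normalization (0.57). The following were chosen for mention after their values were seen. *Srgn*, the proteoglycan core that packs granule proteases, rose by 0.37 and *Ctsc*, which activates the serine proteases, by 0.32 on the log2 scale. *Srgn* did not pass after quantile normalization, at 0.11 (limma-adjusted p = 0.243). *Lyz2* and *Lyz1*, which encode lysozyme, fell by 0.42 and 0.32, but they are near-identical copies between which reads can be split. *Ms4a3* and *Prss57*, both known from granulocyte-macrophage progenitors, had log2 fold changes of −0.03 and −0.06 and did not pass.

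Of 18 further genes of the specific, gelatinase and secretory granules, 17 were tested, 5 fell, 2 rose and 10 did not pass. The median log2 fold change was −0.07. *Adam8*, a membrane protease, was the only one called, with 692 ± 93.3 (SD, n = 3) in Ly5.1 and 1270 ± 113 (SD, n = 3) in Ltbr-/- cells and a log2 fold change of 0.88 (limma-adjusted p = 4.95e-09). *Pglyrp1*, which binds bacterial peptidoglycan, rose by 0.52. The 5 that fell were *Chi3l3* at −0.40, *Cd177* at −0.37, *Hp* at −0.37, *Fcnb* at −0.35 and *Itgam* at −0.30. They encode a chitinase-like protein, a neutrophil surface protein, haptoglobin, ficolin B and the α chain of Mac-1. *Mmp8* and *Mmp9*, the collagenase and gelatinase of neutrophils, had low signals between 65.6 and 146 and did not pass.

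Protease inhibitors and subunits of the oxidase were followed as partners of the granule proteins. Of the 8 listed protease inhibitors 4 were tested and 3 rose. *Serpinb1a*, which inhibits elastase, proteinase 3 and cathepsin G, rose by 0.44 (limma-adjusted p = 3.55e-05), with a signal of 3849 ± 98.6 (SD, n = 3) in Ltbr-/- cells against 2846 ± 123 (SD, n = 3) in Ly5.1, opposite to the protease genes. *Cstb*, an inhibitor of cysteine cathepsins, rose by 0.42 and *Slpi* by 0.31, the latter with overlapping groups. The uncalled genes of the oxidase and of the regulators named here were picked after their values were seen. Of the 6 genes of the NADPH oxidase, which makes the superoxide from which myeloperoxidase's substrate arises, 3 rose, 1 fell and 2 did not pass. *Cyba* was called higher at 0.66 (limma-adjusted p = 4.05e-08), though not after quantile normalization (0.57). *Ncf4* rose by 0.41, while *Cybb*, the catalytic subunit, was at −0.33 (limma-adjusted p = 0.00961). These directions hold for the deposited scale. When every sample was instead centred on its ribosomal protein genes, a value per sample was subtracted from all genes. All log2 fold changes then shifted down by the same amount. On the deposited scale the median of the ribosomal protein genes was higher in Ltbr-/- samples. The median over all tested genes moved to −0.88, and none of the further primary granule, inhibitor and oxidase genes lay above 0. By construction the places relative to that median did not change, with 8 of 14, 3 of 4 and 4 of 6 above it. *Adam8* was at 0.02 under that scaling (limma-adjusted p = 0.889) and was no longer called.

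**Figure D3:**
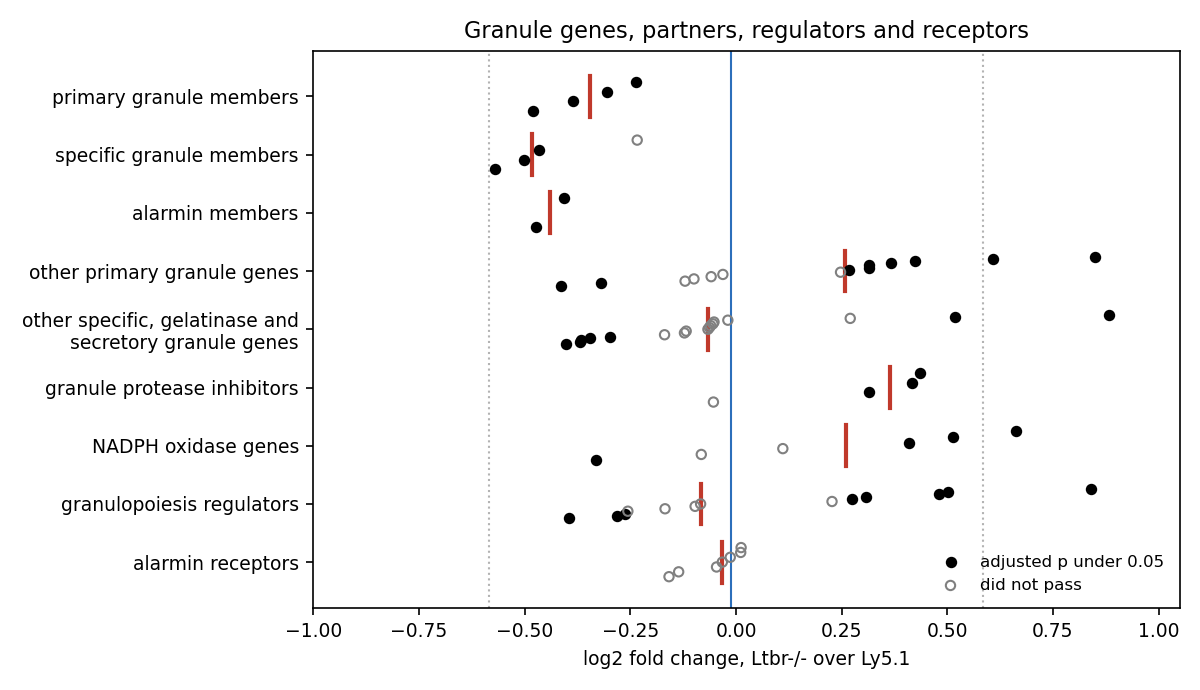
Log2 fold change (Ltbr-/- over Ly5.1) of each tested gene of 9 lists; filled points had an adjusted p under 0.05, red bars are list medians, the blue line is the median of all tested genes and the dotted lines mark a fold of 1.5. The 10 members all lie left of the blue line, whereas the partner lists spread to both sides.

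The 13 regulators of granulopoiesis were mixed as well, with 5 higher, 3 lower and 5 that did not pass. *Cebpe*, the factor that drives the specific granule programme, was called higher, with 760 ± 102 (SD, n = 3) in Ly5.1 and 1354 ± 104 (SD, n = 3) in Ltbr-/- cells and a log2 fold change of 0.84 (limma-adjusted p = 1.06e-08). Its values were 1439, 1384 and 1238 in Ltbr-/- and 787, 647 and 846 in Ly5.1 samples, so that the groups stood apart in the direction opposite to *Camp*, *Ngp*, *Ltf* and *Lcn2*. *Cebpb* rose by 0.50 and *Cebpd* by 0.31. *Cebpa*, which starts the granulocyte programme, had a low signal between 45.8 and 51.8 and a log2 fold change of −0.08. *Sfpi1*, which encodes PU.1, was at 0.23 (limma-adjusted p = 0.0664) and *Gfi1* at −0.26 (limma-adjusted p = 0.0666), and both missed the threshold. *Myb* was at −0.26 (limma-adjusted p = 0.00558) and *Csf3r*, the receptor for G-CSF, at −0.39 (limma-adjusted p = 8.62e-04), both lower in all 3 Ltbr-/- samples. *Myb* was at −0.51 after quantile normalization. Under the scaling on ribosomal protein genes all 13 lay below 0. Relative to the median of all genes, 6 of them, *Cebpe* included, lay above it, as on the deposited scale. The 7 receptors and adaptors of alarmins had log2 fold changes between −0.16 and 0.01. Of them 0 passed in limma and 0 had an unadjusted p under 0.05, against 1936 and 3555 of all 13108 tested genes. Among the 7, *Myd88* had 358 to 474, *Tlr2* 203 to 237 and *Tlr4* 129 to 162 over the 6 samples.

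Markers of other cells were measured beside the 10 genes. The summed signal of 12 mature neutrophil markers lay between 3978 and 4337 in Ltbr-/- and between 4678 and 5314 in Ly5.1 cells, and moved with the granule genes. Of the 9 tested, 2 fell, 1 rose and 6 did not pass, and the sum was carried by *Csf3r* and *Cxcr4*. The defining markers were near the bottom of the scale, with *Ly6g* between 18.5 and 21.1 and *Fpr1* and *Stfa2l1* between 3.01 and 3.51. *Ly6g* fell with the granule genes, by 0.12 on the log2 scale (limma-adjusted p = 0.0387), with the Ltbr-/- values below all Ly5.1 values. *Clec4d* alone was called, at 0.59 (limma-adjusted p = 1.27e-05). Among 12 markers of granulocyte-macrophage progenitors, 4 rose, 2 fell and 6 did not pass, with a median log2 fold change of −0.045. Their sum was higher in Ltbr-/- cells, between 17985 and 19006 against 14442 and 15647. *Plac8*, with 7259 to 8125 against 4814 to 5331, and *Fcgr3*, with 2012 to 2386 against 973 to 1162, carried this difference. *Fcgr3* at 1.08, *Cebpe* at 0.84 and *Plac8* at 0.60 were called, the last not after quantile normalization (0.40). The sum of 12 monocyte and macrophage markers was higher as well, from 6883 to 7329 against 5807 to 6319, with *Emr1* called at 0.83 and 3 of 10 tested genes passing, all higher. Of the 10 mast cell and basophil markers, 7 were tested, with a median log2 fold change of −0.04. Of these 2 rose, *Cma1*, called at 1.32, and *Cpa3* at 0.56, and 1 fell, *Prss34* at −0.41. The sum went from 4336 to 4967 in Ly5.1 to 7803 to 8361 in Ltbr-/- cells. Most of this difference came from *Cma1*, with 5262 to 5795 in Ltbr-/- against 2032 to 2452 in Ly5.1 cells.

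*Epx*, a peroxidase of eosinophil granules related to *Mpo*, was called higher at 0.71 (limma-adjusted p = 2.20e-06), the only one of 7 tested eosinophil markers to pass. The sum of the 8 listed markers lay between 2316 and 2681 in Ltbr-/- and between 1980 and 2229 in Ly5.1 cells. B cell and plasma cell markers moved with the granule genes in sum, from 1980 to 2052 in Ltbr-/- against 3136 to 3453 in Ly5.1 cells. This rested on *Igkc* at −1.21, *Ighm* at −1.04 and *Igha* at −0.91, which were called lower. They are named for constant regions of immunoglobulins, and whether reads of other immunoglobulin segments entered their values is not known. *Cd79a* was called higher at 0.62, and the defining markers *Ms4a1* and *Pax5* lay between 1.15 and 1.72. Erythroid markers had sums from 4480 to 4762 against 3474 to 3714. Most of this difference came from *Hba-a1*, with 1988 to 2244 against 946 to 1312. It was called at 0.99 as the only one of 9 to pass. Megakaryocyte markers had sums from 13998 to 14797 against 11875 to 13193, a difference that *Itga2b* made alone, with 11349 to 12025 against 8856 to 9964. On the deposited scale *Itga2b* rose by 0.31, but it was at 0.01 after quantile normalization (limma-adjusted p = 0.904), while *Pf4* fell by 0.33 and *Vwf* was at −0.22 without passing. The 8 T and NK cell markers summed to 95.5 to 96.9 against 94.1 to 100.1, with the strongest, *Ncr1*, *Klrb1c* and *Cd3g*, between 15.9 and 28.9. Of the 14 HSC markers 1 rose, 2 fell and 11 did not pass, with a median log2 fold change of −0.14. Higher values in these marker lists also hold for the deposited scale. With samples centred on ribosomal protein genes, 0 of 10 monocyte and macrophage, 0 of 7 eosinophil and 0 of 6 megakaryocyte markers lay above 0, and *Emr1* was at −0.03. In 3 lists 1 gene stayed above 0, namely 1 of 12 progenitor, 1 of 7 mast cell and basophil and 1 of 9 erythroid markers. Whether mature neutrophils, B cells or other admixed cells had a part in the lower granule signal was not tested, and neither was donor age.

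**Figure D4:**
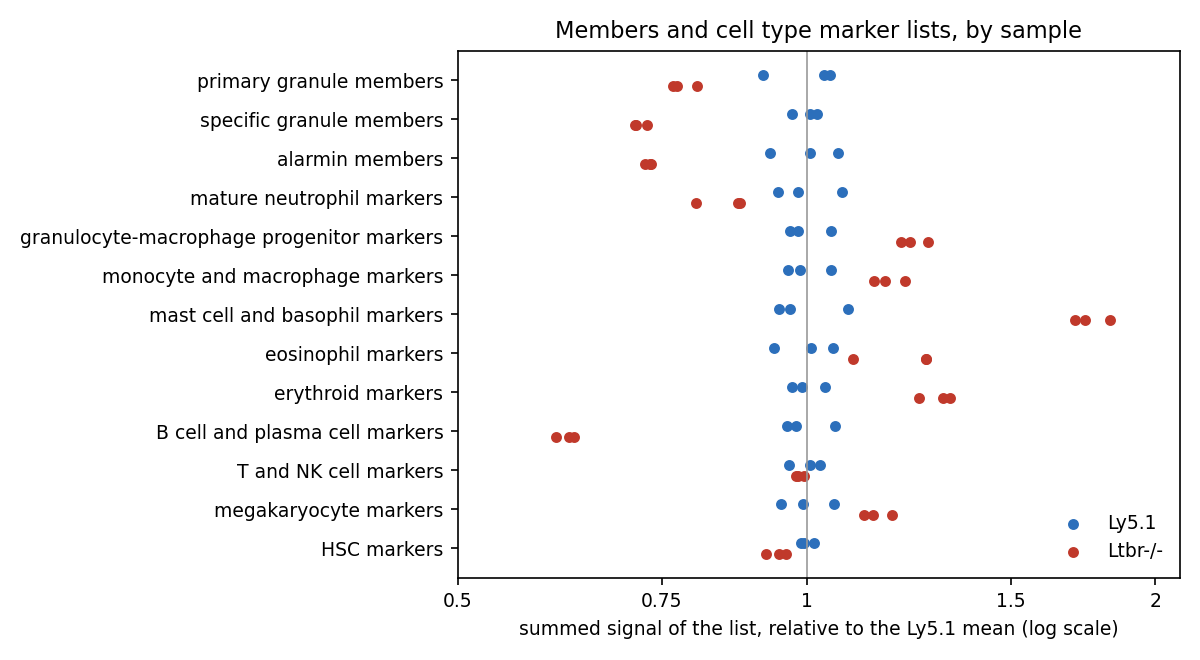
Summed signal of each marker list in every sample, relative to the mean of the 3 Ly5.1 samples (log axis). The 3 member groups, the mature neutrophil, B cell and plasma cell, and HSC lists lie to the left in Ltbr-/- samples (red), and the progenitor, monocyte, mast cell, eosinophil, erythroid and megakaryocyte lists to the right; the T and NK cell list overlaps.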

How the data were processed

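LT/ST-HSCs of 3 Ltbr-/- and 3 Ly5.1 samples were compared, grouped by the sample titles. Reads were assembled in SeqMan NGen and analysed in ArrayStar by the authors, who deposited 1 signal per gene and sample. The annotation and counting settings are not given in the sources used here, and the depth is given only as an average over the samples. GRCm38 and mm10 are the builds in the submitters' processing notes. That the signal is 2 to the power of the regularized log named in the methods was taken from the values, so its log2 was used without scaling or pseudocount. Of repeated names the row with the highest mean was kept. Names in the upper 50% by mean, 13108 of 26216, entered a linear model in limma 3.58.1 under R 4.3.3, whose variances were moderated along the mean. P-values were adjusted by Benjamini-Hochberg over these genes, and a call required an adjusted p below 0.05 together with a 1.5-fold difference. The fit was checked on simulated data.

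The members and lists were chosen with earlier results of these data known. Of 178 list entries, 6 matched through a RefSeq synonym and the rest directly. Named were all 10 members, from each list the called genes or else the 3 with the highest mean, and the 5 genes most like each member group among those with a within-genotype SD of at least 0.2 (log2); others were named after their values were seen. The result with no fold threshold was added after the values were seen. Replicate numbers were not treated as pairs. Nothing says that the samples came from separate sorts, so p-values measure the spread between these samples. The alternatives were the replicate block, other filters, quantile normalization, centring on 78 ribosomal protein genes, other variance models, the mean of repeated rows, a pseudocount of 1, no fold threshold and leaving out each sample. Values of some single list genes are not reported here.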

Additional observations from a re-analysis of the deposited data

How the results depend on the processing

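The 10 log2 fold changes stayed below 0 in every alternative, and 135 of 150 comparisons of a gene with an alternative kept their side of the threshold, 11 lost it and 4 gained it. The number of genes called lower among the 10, which was 0, became 6 after quantile normalization, 10 with samples centred on ribosomal protein genes and 9 with no fold threshold, and ranged from 0 to 1 over the fits that left out 1 sample. Of all 13108 tested genes, 8 were called lower in the main fit, 28 after quantile normalization and 548 with no fold threshold. Over the fits that left out 1 sample this number was 8 to 12. Centring on ribosomal protein genes, which shifts all log2 fold changes by the same amount, called 11955 of all genes, all of them lower. The 10 genes then lay between −1.44 and −1.10, below the median of all tested genes at −0.88. With no fold threshold 1936 genes passed in all. The number of the 10 that passed at any fold, 9, was 4 without a filter, where constant genes enter the variance estimate. With the replicate block, the number was 9 and the number of all genes called was 364, and the block changed no call of the 10. Deviations of same-numbered samples from their group means correlated at 0.03, −0.01 and 0.09. With 3 samples a group, these values cannot tell whether same-numbered samples came from the same chimeras, and the labels do not say. The primary minus later difference stayed above 0 and moved by less than the SD between samples in its alternatives, but ranged from 0.04 (without Ly5.1 replicate 2) to 0.14 (without Ly5.1 replicate 1). The deposited values are no counts, and depth is given only as an average over the samples. No counting error can therefore be given for weakly expressed genes such as *Mmp8*, *Cebpa* and *Ly6g*.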
